A study of Rattus norvegicus with 10 samples.

Results

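Tuft cells are rare chemosensory cells of the gut epithelium, and 10 genes that mark them were followed in rat distal colon: the regulator Pou2f3, the structural and signalling markers Avil, Sh2d6 and Dclk1, the taste pathway genes Gnat3 and Trpm5, the eicosanoid enzymes Alox5 and Ptgs1, and the cytokine gene Il25 with the receptor gene Il17rb. The genes were chosen by name, and all 10 were found by symbol among the 23422 genes of the count table. The libraries came from male Wistar Munich rats whose age the labels do not give. After 3 days of acclimatization of 12 rats in metabolic cages that held 1 animal each, 6 were moved to rodent chow containing 1% w/w sodium cholate, a bile salt, and the controls stayed on plain chow. Both diets lasted 10 days, after which epithelial cells were released from the distal colon with EDTA. Only the 5 rats of each diet with the most concentrated RNA were sequenced, which is not a random choice: controls 1, 2, 5, 6 and 9, and cholate rats 3, 4, 7, 8 and 11, 1 library each.

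Tuft cells depend on the transcription factor Pou2f3 and read luminal metabolites with the signalling chain used by taste cells, in which gustducin acts through phospholipase C and calcium release to open the cation channel Trpm5. In the intestine they release the cytokine IL-25, which stimulates type 2 innate lymphoid cells, and eicosanoids made from arachidonic acid by cyclooxygenase and 5-lipoxygenase. They are a small minority of the epithelium, so their transcripts are scarce in libraries of the whole cell layer.

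Total counts ran from 14337356 to 45285762 reads per library, lowest in cholate rat 11 and highest in cholate rat 4. In 4 libraries (controls 5 and 9, cholate rats 8 and 11) the sample quality weight, an estimate of how closely a library follows its group, was 0.219 to 0.822. It was 1.42 to 2.23 in the other 6. In the same 4 libraries genes with long transcripts were lower, relative to genes with short ones, than in the other 6. The difference in log2 level, long minus short, was -0.996 to 0.0786 in the 4 and 0.224 to 0.528 in the other 6. Results are therefore given for all 10 libraries, the planned comparison, and also for the 6 with a weight above 1 (controls 1, 2 and 6, cholate rats 3, 4 and 7), a subset chosen after the data were seen. The weights were estimated from these same counts, so the choice favours libraries close to their group. Adjusted p values in the 6 can therefore be too small and are not firmer than those of all 10. In bulk RNA, fewer tuft cells and less RNA per tuft cell cannot be told apart.

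None of the tuft cell genes passed the study's threshold. Levels are in CPM (each gene's reads over the library size, scaled by the trimmed mean of M values), and a gene was called at a Benjamini-Hochberg adjusted p under 0.01 in edgeR's quasi-likelihood test with an absolute log2 fold change over 1. Of the 10 genes, 9 had enough reads to be tested and 0 were called, where 3.21% of all 12385 tested genes were called (2.12% lower and 1.1% higher on cholate). At an unadjusted p under 0.05 the count was 3 of 9 (Gnat3, Il17rb and Trpm5), against 29.0% of all genes. The fitted change was below 0 for 9 of 9, against 51.1% of all genes, with a median log2 fold change of -0.83 against -0.01 over all genes tested. The values of the diets did not overlap for 2 of the 9, both lower on cholate, where 13.1% of all genes were without overlap in either direction, 6.8% lower and 6.3% higher. Settings that called some of the genes also called more genes overall. DESeq2 called 1 (Gnat3) and 6.16% of all genes, limma-voom with sample quality weights called 3 (Gnat3, Trpm5 and Sh2d6) and 9.34% of all genes, and edgeR on the 6 libraries called 1 (Gnat3) and 7.93% of all genes.

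**Figure D1:**
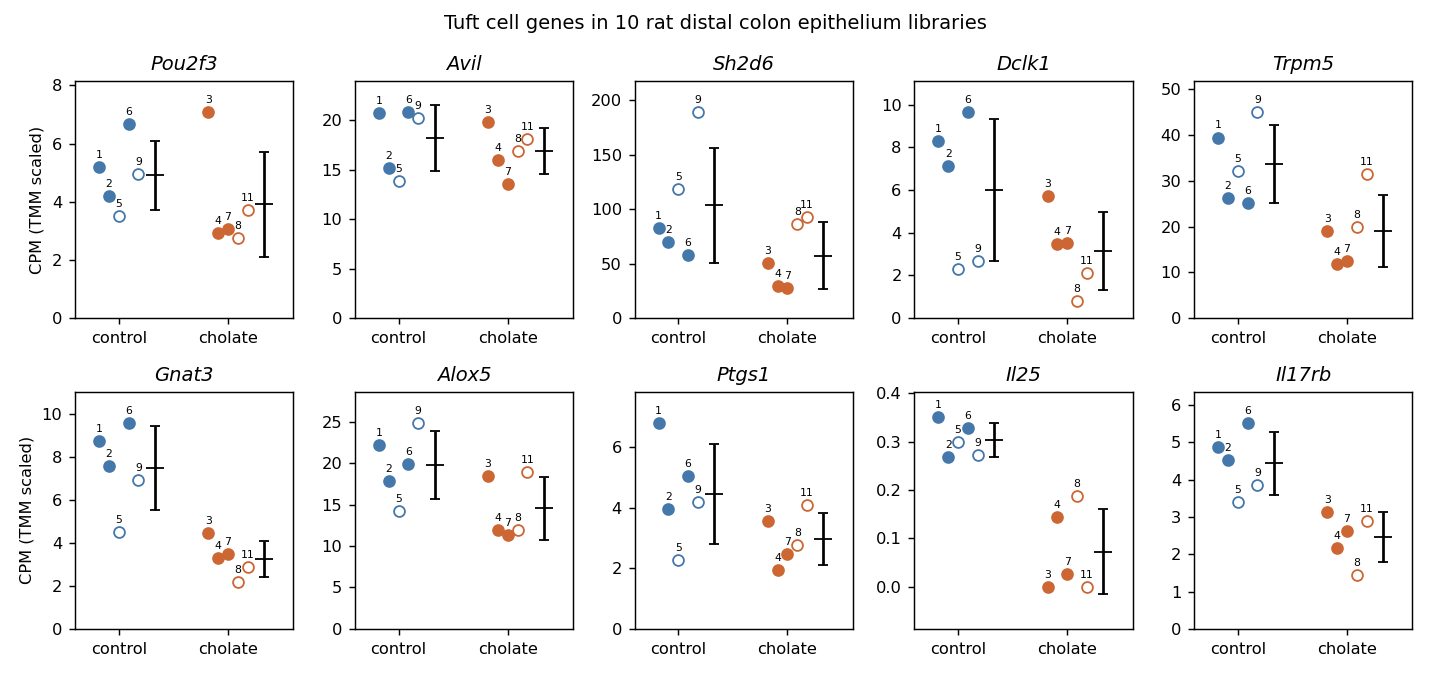
Level of each of the 10 genes in CPM (vertical axes, each with its own scale) in control (blue) and cholate (orange) libraries. Each point is 1 rat with its number, filled for a quality weight above 1 and open below 1, and the bars give mean ± SD (n = 5); the Gnat3, Il17rb and Il25 points of the diets do not overlap, and the lower end of the Il25 cholate bar lies below 0, which no level can.

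The promoter sequences of 3 of the genes are shown because they are a set in which the gene that differed least between diets, Avil, stands beside a pair of taste pathway genes with lower mean levels on cholate. Each is the 250 bases upstream of the annotated start, read 5′ to 3′ on the gene's strand, from RefSeq (build GRCr8). Capitals mark ATGCAAA, 7 letters of the octamer ATGCAAAT that POU factors are known to bind.

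Avil, chr7:64711153-64711402, plus strand: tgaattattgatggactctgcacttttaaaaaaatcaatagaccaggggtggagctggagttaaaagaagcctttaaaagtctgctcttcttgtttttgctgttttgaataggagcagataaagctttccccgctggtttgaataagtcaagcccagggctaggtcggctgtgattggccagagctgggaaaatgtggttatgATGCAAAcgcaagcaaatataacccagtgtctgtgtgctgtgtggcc
Gnat3, chr4:18104333-18104582, minus strand: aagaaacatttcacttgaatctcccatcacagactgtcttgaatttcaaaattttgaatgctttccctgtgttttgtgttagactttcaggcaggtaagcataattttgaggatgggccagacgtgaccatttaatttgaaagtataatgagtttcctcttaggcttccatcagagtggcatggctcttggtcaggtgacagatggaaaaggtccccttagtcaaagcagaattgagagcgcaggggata
Trpm5, chr1:207707089-207707338, minus strand: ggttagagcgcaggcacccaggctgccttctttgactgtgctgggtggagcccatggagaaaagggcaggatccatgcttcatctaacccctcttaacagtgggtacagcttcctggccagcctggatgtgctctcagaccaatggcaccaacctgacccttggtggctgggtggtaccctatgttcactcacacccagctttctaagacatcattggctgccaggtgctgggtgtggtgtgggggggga

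RefSeq entries were matched for 8 of the 10 genes, with 9 promoters in all since Sh2d6 has a pair; Pou2f3 and Il25 had no entry. The octamer ATGCAAAT, or its reverse complement ATTTGCAT, was in 0 of the 9 promoters and in 1.56% of 33469 promoters of the same length. ATGCAAA or TTTGCAT, which lies within the octamer, was in 1 of 9, at -47 from the start of Avil, and in 4.08% of all promoters. ATGCNNAT or ATNNGCAT was in 0 of 9 and in 8.17% of all. All 3 forms were chosen after the data were seen, and these are matches of letters only.

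Pou2f3 encodes the transcription factor without which tuft cells do not form (rn6 chromosome 8, 47412063 to 47495042, minus strand). Its level was 5.19, 4.21, 3.51, 6.67 and 4.95 CPM in controls 1, 2, 5, 6 and 9, and 7.09, 2.92, 3.08, 2.75 and 3.72 CPM in cholate rats 3, 4, 7, 8 and 11. Cholate rat 3 had the highest level of all 10 animals, the other cholate rats lay between 2.75 and 3.72 CPM, and the diets overlapped. Its fitted log2 fold change was -0.33 (SE 0.30, adjusted p = 0.528, edgeR quasi-likelihood). Without cholate rat 3 it was -0.66, and it was still not called.

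Avil encodes advillin, an actin-bundling protein related to villin and found in the tuft cell brush (chromosome 7, 70292565 to 70310588, plus strand). Controls 1, 2, 5, 6 and 9 had 20.7, 15.2, 13.9, 20.8 and 20.2 CPM, and cholate rats 3, 4, 7, 8 and 11 had 19.9, 15.9, 13.6, 16.9 and 18.1 CPM. The ranges nearly coincide. The fit gave a log2 fold change of -0.11 (adjusted p = 0.743, edgeR quasi-likelihood). An approximate 95% interval, from a normal multiple of the SE, was -0.44 to 0.23 and is somewhat too narrow for that test. A loss of the size fitted for Gnat3 lies outside this approximate interval.

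Sh2d6 encodes an SH2 domain protein that marks tuft cells and was the most abundant of the 10 (chromosome 4, 100373808 to 100382209, minus strand). It stood at 83.1, 70.4, 118, 58.0 and 189 CPM in controls 1, 2, 5, 6 and 9 and at 50.9, 29.9, 27.3, 86.5 and 93.2 CPM in cholate rats 3, 4, 7, 8 and 11. Within each diet the highest values were in the 4 libraries of low quality weight, and the diets overlapped through cholate rats 8 and 11. On the log2 scale the change was -0.85 (SE 0.42, adjusted p = 0.207) in 10 libraries and -0.94 (adjusted p = 0.0219) in the 6, both by edgeR's quasi-likelihood test.

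Dclk1 encodes a microtubule-associated kinase and is a widely used tuft cell marker in the mouse (chromosome 2, 144646255 to 144939389, plus strand). Its levels were 8.28, 7.13, 2.31, 9.65 and 2.67 CPM in controls 1, 2, 5, 6 and 9, and 5.72, 3.47, 3.51, 0.814 and 2.13 CPM in cholate rats 3, 4, 7, 8 and 11. Here the 4 libraries of low quality weight were the lowest of their diets, the reverse of Sh2d6. Its log2 fold change was -0.93 (SE 0.52, adjusted p = 0.271) and, in the 6 libraries, -0.96 (adjusted p = 0.013, edgeR quasi-likelihood). Dclk1 has the longest transcript of the 10 (13793 exon bases, against 1908 for Sh2d6); whether transcript length had a part in these values was not tested.

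Gnat3, the alpha subunit of gustducin that couples taste receptors to the cascade, had the lowest p of the tested members of the group (chromosome 4, 13827764 to 13878126, minus strand). It was at 8.77, 7.59, 4.51, 9.60 and 6.91 CPM in controls 1, 2, 5, 6 and 9 and at 4.47, 3.31, 3.51, 2.19 and 2.88 CPM in cholate rats 3, 4, 7, 8 and 11. Every cholate library lay below every control, though control 5 (4.51 CPM) and cholate rat 3 (4.47 CPM) nearly met. The mean was 7.48 ± 1.95 CPM in controls and 3.27 ± 0.837 CPM on cholate (SD, n = 5 each), a fitted 2.27-fold lower level. Its log2 fold change of -1.19 (SE 0.26) passed the fold threshold, but its adjusted p of 0.0131 in edgeR's quasi-likelihood test missed 0.01. In the 6 libraries the log2 fold change was -1.18 with an adjusted p of 0.0022.

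Trpm5, the calcium-activated cation channel at the end of the cascade, lies on chromosome 1 (216256653 to 216281504, minus strand). It was at 39.5, 26.3, 32.2, 25.2 and 45.1 CPM in controls 1, 2, 5, 6 and 9, and at 19.1, 11.9, 12.5, 20.0 and 31.5 CPM in cholate rats 3, 4, 7, 8 and 11. Of the cholate rats only number 11 reached the range of the controls. The log2 fold change was -0.83 (SE 0.28, adjusted p = 0.0768) and -1.04 in the 6 libraries (adjusted p = 0.0106, edgeR quasi-likelihood).

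Alox5 encodes 5-lipoxygenase, the first enzyme of leukotriene synthesis (chromosome 4, 148398004 to 148446308, minus strand). Controls ran from 14.2 to 24.9 CPM and cholate rats from 11.4 to 18.9 CPM, and the diets overlapped. The log2 fold change was -0.45 (SE 0.21, adjusted p = 0.194, edgeR quasi-likelihood). Alox5 shares exon sequence with March8 on the opposite strand, and how the counting treated strand is not stated, so its reads are uncertain.

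Ptgs1 encodes cyclooxygenase 1, which makes the precursor of prostaglandins (chromosome 3, 15560685 to 15582339, plus strand). It ran from 2.28 to 6.80 CPM in controls and from 1.93 to 4.10 CPM on cholate, with overlap. Its log2 fold change was -0.60 (SE 0.31, adjusted p = 0.234) and -0.98 in the 6 libraries (adjusted p = 0.0289, edgeR quasi-likelihood).

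Il25, the cytokine by which tuft cells signal to type 2 lymphoid cells, had too few reads for the test (chromosome 15, 33594852 to 33599692, plus strand). There were 10, 7, 8, 12 and 5 reads in controls 1, 2, 5, 6 and 9, and 0, 7, 1, 3 and 0 reads in cholate rats 3, 4, 7, 8 and 11. In CPM, which allows for depth, every cholate library lay below every control: 0.268 to 0.351 CPM against 0 to 0.188 CPM. A count of 0 allows up to 3 reads, which over the unscaled library size is 0.116 CPM in cholate rat 3 and 0.209 CPM in cholate rat 11. The pooled rate was 3.98 times higher in controls (42 against 11 reads, exact 95% interval 2.02 to 8.58 from read counting alone, with no allowance for variation among rats). With no low count filter edgeR's quasi-likelihood test gave an adjusted p of 0.107, and DESeq2 gave 0.0351.

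Il17rb encodes a subunit of the IL-25 receptor, which tuft cells carry themselves (chromosome 16, 6064287 to 6077978, minus strand). It was at 4.87, 4.52, 3.39, 5.52 and 3.86 CPM in controls 1, 2, 5, 6 and 9, and at 3.14, 2.18, 2.62, 1.44 and 2.88 CPM in cholate rats 3, 4, 7, 8 and 11. The diets did not overlap. The log2 fold change was -0.85 (SE 0.25, adjusted p = 0.0446, edgeR quasi-likelihood), short of both thresholds, and -0.89 in the 6 libraries (adjusted p = 0.0122).

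**Figure D2:**
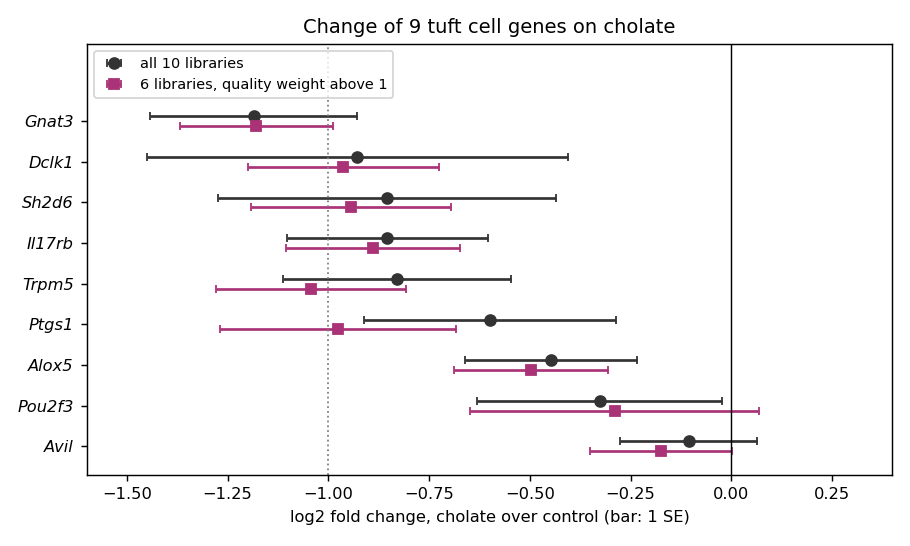
Fitted log2 fold change, cholate over control (horizontal axis), of the 9 tested genes in all 10 libraries (circles) and in the 6 with a quality weight above 1 (squares), with bars of 1 SE; the dotted line is the fold threshold of the study. Gnat3 lies past that line in both fits, Trpm5 only in the 6 libraries, and Avil and Pou2f3 lie nearest to 0.

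Genes were compared per kilobase of coding length, the length the deposited table gives. On this scale Sh2d6 was highest in controls, at 88.1 ± 44.8 CPM per kb (SD, n = 5). Alox5 (9.72 ± 2.00), Trpm5 (9.41 ± 2.39), Avil (7.39 ± 1.35) and Gnat3 (7.02 ± 1.84) followed, and neighbours in that order did not differ beyond their spread. Pou2f3 (3.80 ± 0.919), Il17rb (2.96 ± 0.557), Dclk1 (2.48 ± 1.38) and Ptgs1 (2.46 ± 0.913) formed a lower set, with Il25 far below at 0.413 ± 0.0485 CPM per kb. On cholate Gnat3 was at 3.07 ± 0.786 CPM per kb, near Pou2f3 at 3.03 ± 1.40, while Avil was at 6.87 ± 0.956. It is not known whether reads in untranslated regions were counted, and the order depends on the length used. Per kilobase of all exon bases, added after the data were seen, Sh2d6 was again highest in controls (54.4 ± 27.7 CPM per kb) and Il25 lowest (0.247 ± 0.0290), but Avil (6.03 ± 1.11) came before Alox5 (5.42 ± 1.12) and Trpm5 (4.91 ± 1.24), and Dclk1 was at 0.436 ± 0.242, below Ptgs1 (1.58 ± 0.585) and Il17rb (1.43 ± 0.270).

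To see whether the genes kept their proportions to one another, each was divided by Pou2f3 or Avil within the same library, which removes library size; these 15 ratios were chosen after the levels had been seen. Gnat3 over Pou2f3 was 1.52 ± 0.214 in controls and 0.895 ± 0.230 on cholate (SD, n = 5 each), without overlap. Gnat3 over Avil was 0.410 ± 0.0751 and 0.196 ± 0.0514, also without overlap. Both gave the smallest p that 5 against 5 animals allow (0.00794, two-sided exact permutation test), which was 0.0595 after Benjamini-Hochberg adjustment over the 15 ratios. Il17rb over Avil (log2 difference -0.79) and Trpm5 over Avil (-0.79) had adjusted p of 0.0714 each by the same exact permutation test, and 0 of the 15 passed 0.05 after adjustment. In the 6 libraries the log2 differences of Gnat3 over Pou2f3 and over Avil were -0.81 and -1.01, where 3 against 3 animals cannot give an exact permutation p below 0.1.

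**Figure D3:**
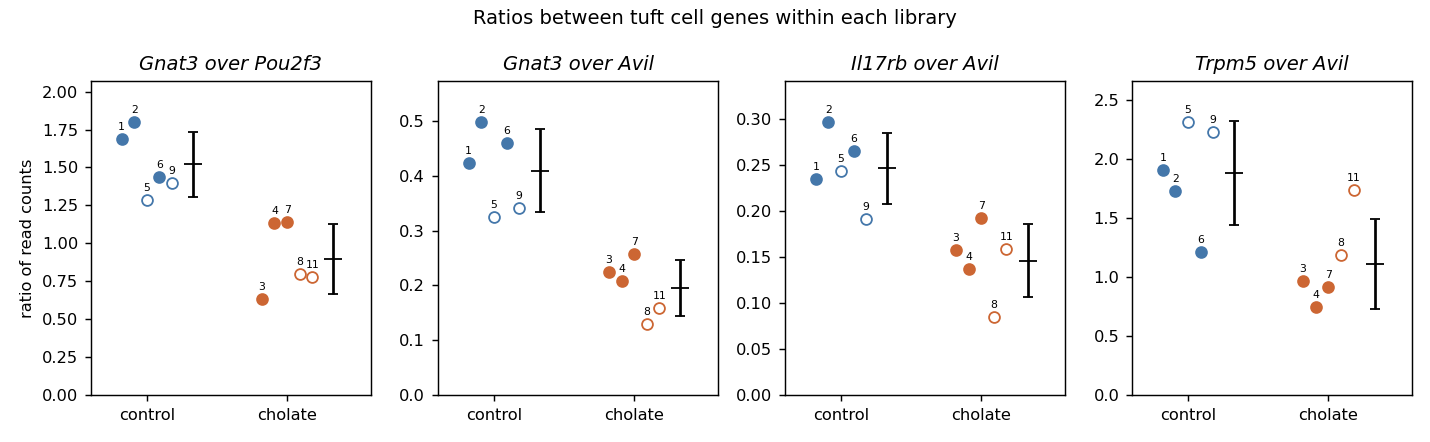
Ratio of read counts between genes within each library (vertical axes) for 4 of the 15 ratios. Points are rats with their numbers, filled for a quality weight above 1 and open below 1, and bars give mean ± SD (n = 5); both Gnat3 ratios are lower in every cholate rat than in every control.

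Variation from rat to rat within a diet was compared between pairs of the 9 tested genes. With 1 library per rat, variation among rats cannot be told apart from differences in library quality. The permutations exchanged libraries within a diet whatever their quality weight. Of 36 pairs, 29 had a Pearson r above 0 after each diet was centred, 20 exceeded 0.5, and 7 were below 0. An adjusted permutation p under 0.05 was reached by 5, all with r above 0, and pairs of other genes were not examined for comparison. Dclk1 and Gnat3 were closest (r = 0.93, Spearman rho = 0.96, permutation adjusted p = 0.00288 for each, n = 10), and r was 0.88 without the 2 rats farthest from the median of Dclk1. Trpm5 and Sh2d6 also varied together (r = 0.88, rho = 0.89, permutation adjusted p = 0.0329 and 0.0270, n = 10, r = 0.86 without the 2 farthest rats). Dclk1 and Sh2d6 ran opposite (r = -0.74, rho = -0.53, permutation adjusted p = 0.0858 and 0.248, n = 10). In the 6 libraries of higher weight all 36 pairs had r above 0, Dclk1 with Sh2d6 included (0.65). That pattern rests on cholate rat 3: without it, 29 of 36 pairs were above 0 and Dclk1 with Sh2d6 was at -0.53.

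**Figure D4:**
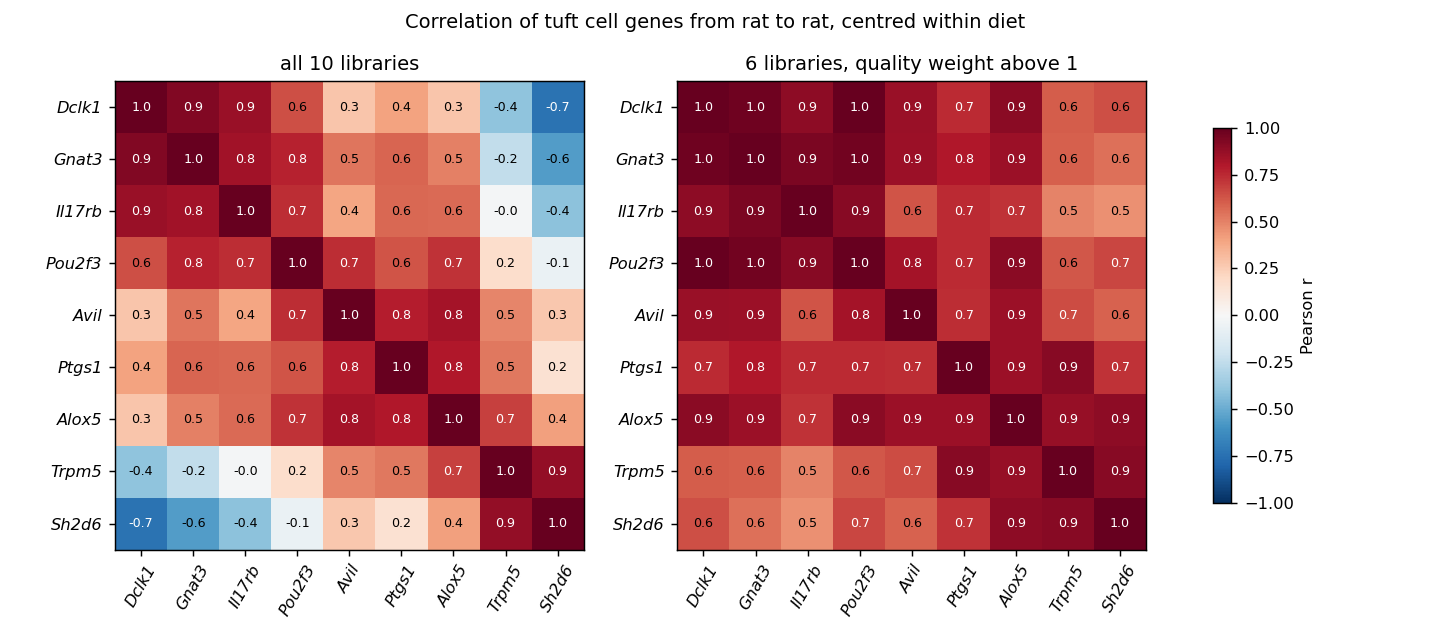
Pearson r between the 9 tested genes (rows and columns) over log2 levels centred within each diet, in all 10 libraries (left) and in the 6 with a quality weight above 1 (right); red is positive and blue negative. Trpm5 and Sh2d6 have negative r with Dclk1 and Gnat3 in the left panel only, and the right panel depends on cholate rat 3. None of those negative values reached an adjusted permutation p under 0.05.

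The genes most like the group were ranked by their r with an index over the 10 libraries, centred by diet. The index was the mean of 6 tested genes (Pou2f3, Trpm5, Gnat3, Avil, Sh2d6 and Il17rb). Dclk1, Alox5 and Ptgs1 were left out of it because other gut cells also express them. Among 11043 other genes, those with the highest r included Rgs2 and Krt23 (r = 0.89 each), Nckap1l (0.88), Cd14 (0.87), Map4k1, Gkap1, Ncf4 and Alox5ap (0.86 each), Adgrb2 (0.85), Plcg2 (0.84) and Slco3a1 (0.83). Alox5ap, the partner protein of 5-lipoxygenase, and Plcg2, a phospholipase C, were also on the eicosanoid and tuft lists. Alox5, which is not in the index, had r = 0.96, Ptgs1 0.84 and Dclk1 0.40. The genes that make up the index followed it unevenly. Avil had r = 0.88, Pou2f3 0.86, Il17rb 0.66, Gnat3 0.60, Trpm5 0.59 and Sh2d6 0.29. Each of the 6 is itself part of the index, which raises its r. Their values therefore cannot be set beside those of Alox5, Ptgs1 and Dclk1. All these r values are a description of 10 libraries. The genes named as most like the index are the top of a ranking of 11043. High r can arise from such a selection alone, and no chance level was worked out.

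Of 14 other genes listed for taste transduction, which include receptors outside the cascade such as Ffar3, 11 were tested. In either direction 0 were called, where 3.21% of all tested genes were. Of the 11 log2 changes 7 were below 0, against 51.1% of all genes, and the list median was -0.19. Plcb2, the phospholipase C that acts after gustducin, was at 3.53 to 5.40 CPM in controls and 3.57 to 6.61 CPM on cholate (log2 fold change 0.07), and Gng13, the gamma subunit of gustducin, had a change of 0.37, so neither was lower in the fit. The smallest adjusted p values in edgeR's quasi-likelihood test were those of Ffar3, a short-chain fatty acid receptor (-1.31, adjusted p = 0.016), Itpr3, the calcium release channel of the cascade (-0.49, adjusted p = 0.0209), and Tas1r3, a taste receptor subunit (-2.30, adjusted p = 0.0397, with no read in cholate rats 8 and 11).

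Among other tuft cell genes 23 of 25 were tested, and 1, Alpk3, passed, lower on cholate, a share near the 3.21% of all genes called (2.12% lower). Alpk3 encodes an alpha kinase known mainly from muscle. It was at 18.5 to 48.5 CPM in controls and 9.26 to 14.0 CPM on cholate (log2 fold change -1.43, adjusted p = 0.00534, edgeR quasi-likelihood), and the call was lost when any of controls 1, 2 and 6 or cholate rats 3, 4 and 7 was left out. Desmin (Des), a muscle filament gene, also fell (38.2 to 4.50 CPM, log2 fold change -3.10, adjusted p = 0.000417, edgeR quasi-likelihood), and whether muscle RNA had a part in the value of Alpk3 was not tested. The other 22 tested included Lrmp, also called Irag2 (-1.69, adjusted p = 0.0263), and Nrgn (-0.61, adjusted p = 0.0648). The list's median was -0.33, and 20 of 23 changes were below 0, against 51.1% of all genes.

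The eicosanoid enzymes other than Alox5 and Ptgs1 were split. Of 18 listed 13 were tested and 0 were called, where 3.21% of all genes were. Of the 13 changes 7 were below 0, against 51.1% of all genes (list median -0.18). Ptges3, a prostaglandin E synthase, had the smallest adjusted p (log2 fold change 0.50, adjusted p = 0.0409), followed by Pla2g4a, the phospholipase that releases arachidonic acid (-0.75, adjusted p = 0.103), and Ptgr1, which inactivates prostaglandins and leukotriene B4 (-0.26, adjusted p = 0.211, all edgeR quasi-likelihood). Of 13 eicosanoid receptors 3 had enough reads and 0 were called, where 3.21% of all genes were. Ptger3, a prostaglandin E2 receptor, was at 5.61 to 8.77 CPM in controls and 1.09 to 4.07 CPM on cholate. Its diets did not overlap (log2 fold change -1.58, adjusted p = 0.0119, edgeR quasi-likelihood), where 6.8% of all genes were lower without overlap. Ptger4, another of that family, was at -0.69 (adjusted p = 0.0812), and Tbxa2r, the thromboxane receptor, was at -0.24 (adjusted p = 0.75).

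Around IL-25, 7 of 15 genes of the type 2 cytokine circuit were tested and 0 were called (median -0.08), where 3.21% of all genes were. Crlf2, the receptor subunit for thymic stromal lymphopoietin, was at 10.3 to 15.3 CPM in controls and higher on cholate, at 18.8 to 38.2 CPM. Its diets did not overlap, where 6.3% of all genes were higher without overlap. Crlf2 just missed the threshold (log2 fold change 1.12, adjusted p = 0.0103, edgeR quasi-likelihood). Stat6, the transcription factor of IL-4 and IL-13 signalling, and its receptor gene Il4r had log2 fold changes of -0.45 (adjusted p = 0.0228) and -0.49 (adjusted p = 0.0303). Il4, Il5, Il13 and Il9 had no read in any library, a limit of 0.0662 CPM in cholate rat 4 and 0.209 CPM in cholate rat 11, the deepest and shallowest libraries.

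**Figure D5:**
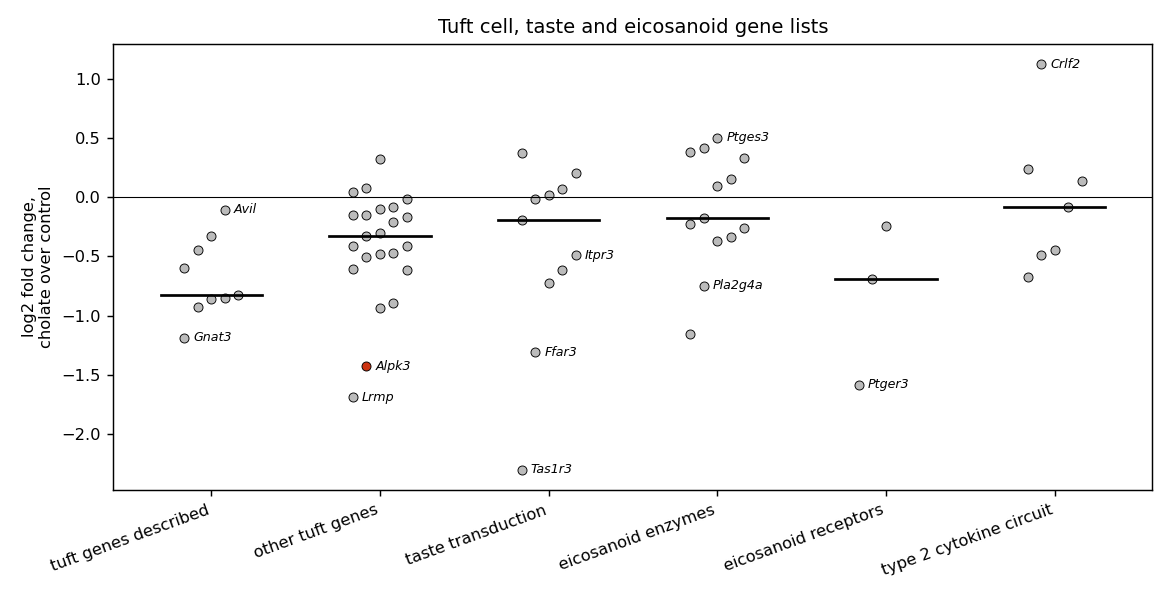
Log2 fold change, cholate over control (vertical axis), of each tested gene in 6 lists; each point is a gene, red if called, and black bars are list medians. Alpk3 is the 1 called gene, and the 9 tuft cell genes described have the lowest list median (-0.83).

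Dclk1, Alox5 and Ptgs1 are also expressed by other gut cells, so markers of those cells were read beside them. The summed level of 15 macrophage and dendritic cell genes was 229 to 307 CPM in controls and 244 to 310 CPM on cholate, mostly from Cd14. The sum therefore says little about the other genes of that list. Cd14 also had r = 0.87 with the index of tuft cell genes, and which cells its reads came from was not tested. Of the 13 genes tested in that list 4 had log2 changes below 0, and the changes ran from -0.11 to 0.93. The 14 granulocyte and mast cell genes summed to 33.3 to 51.1 CPM and 33.1 to 50.6 CPM, with Mpo, Elane and Epx at 0 in every library, and the 11 neuron and glia genes to 1.49 to 2.16 CPM and 1.63 to 2.51 CPM. The 12 matched T and NK cell genes summed to 17.3 to 24.7 CPM and 21.2 to 36.1 CPM, and the 7 B and plasma cell genes to 1.31 to 5.33 CPM and 1.57 to 5.89 CPM. Those 5 lists overlapped between diets and had no called gene, where 3.21% of all genes were called. The 10 endothelium and platelet genes did not overlap, at 5.26 to 9.40 CPM in controls and 2.70 to 4.95 CPM on cholate, and Vwf, the von Willebrand factor gene, was called lower (log2 fold change -1.69, adjusted p = 0.00399, edgeR quasi-likelihood). The 13 fibroblast and smooth muscle genes summed to 48.8 to 71.2 CPM in controls and 15.8 to 19.7 CPM on cholate; Des gave most of the difference, and Dcn, Lum and Pdgfra had means of at most 0.0846 CPM in each diet. The part of these last lists in the levels of Dclk1 and Ptgs1 was not tested. Among epithelial neighbours, 3 of 13 colonocyte genes, 1 of 9 goblet cell genes and 4 of 11 tested enteroendocrine genes were called higher on cholate, where 1.1% of all genes were, and 0 were called lower. The difference between those lists and the tuft cell genes was not tested.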

How the data were processed

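The authors made strand-specific poly(A) libraries and sequenced them on an Illumina HiSeq, per the labels' protocols. Reads were demultiplexed with bcl2fastq 1.8.4, mapped to rn6 with BWA 0.7.12-r1039 and scaled with edgeR 3.16.2, per the submitters' processing notes; which program counted the reads, and with what strand setting, was not given in the sources used here. The deposited file gives raw read counts for each gene, used for every result, and the authors' normalized signal (CPM on TMM library sizes), used only to read their scaling. Its other deposited columns are lengths and coordinates in bases; the effective length equals the coding length, and whether reads in untranslated regions were counted is not given.

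Work was done in R 4.3.3 (edgeR 4.0.16, limma 3.58.1, DESeq2 1.42.0) and Python. Counts were filtered with filterByExpr, scaled by TMM and tested with edgeR's robust quasi-likelihood F test, diet as the only term, with Benjamini-Hochberg adjustment over 12385 genes. Thresholds were the authors'. SEs are approximate. The script was tested on simulated data. The labels name 1 rat per library. The interval of the pooled Il25 rate and the floor of 3 counts cover counting error only. The Avil interval comes from the SE of the fit, which includes variation among rats. Alternatives were other tools, scalings and filters and leaving out each rat. The members, lists and thresholds were chosen with earlier results of these data known. Named were all 10 members, from each of 5 pathway lists the called genes or up to 3 with the smallest adjusted p, and the 12 genes most like the index, of which some are not reported here; Plcb2, Gng13, Des and the single cell type markers named are context. Correlation p values came from 100000 permutations within diet, adjusted over 36 pairs.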

Additional observations from a re-analysis of the deposited data

Results flagged for a closer look

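In 3 of 50 groups of 5 libraries (each diet for each of the 10 tuft cell genes and 15 named list genes), 1 library stood far from the rest by Dixon's criterion, a gap over range above 0.71. Chance flags about 1 in 20 groups. Pou2f3 was 7.09 CPM in cholate rat 3, with the next highest cholate rat at 3.72 CPM. Tbxa2r was 1.57 CPM in cholate rat 8. Il4r was 59.0 CPM in cholate rat 11. No cause of these values was tested.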

How the results depend on the processing

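Across 19 alternative settings the log2 fold changes of the 9 tested tuft cell genes stayed below 0. Gnat3 ranged from -1.32 to -1.06 and was called in 3 settings, Trpm5 and Sh2d6 in 1 each. The 398 called genes became 886 with DESeq2, 1157 with limma-voom with quality weights and 1003 in the 6 libraries, and ran from 168 to 450 when 1 rat was left out. In those 3 settings the called counts were 1, 3 and 1 for the tuft cell genes, 2, 2 and 1 for taste genes, and 2, 3 and 3 for other tuft genes (0 to 2 with a rat left out). Limma-voom with quality weights called 1 eicosanoid enzyme and the 6 libraries 2. Among eicosanoid receptors 1 was called with DESeq2, limma-voom, quality weights, library size scaling and the 6 libraries (0 to 1 with a rat left out). For the type 2 circuit 1 was called with DESeq2, library size scaling and DESeq2 size factors (0 to 1 with a rat left out), and library size scaling called 1 taste gene. With a rat left out, r ran from 0.90 to 0.97 for Dclk1 and Gnat3, 0.85 to 0.93 for Trpm5 and Sh2d6, and -0.82 to -0.68 for Dclk1 and Sh2d6. For the last pair r was -0.72 without the 2 farthest rats and reversed to 0.65 in the 6 libraries; Trpm5 and Sh2d6 had 0.91 there, with an unadjusted permutation p of 0.0565. The log2 ratio of Alox5 to Pou2f3 (-0.07) ran from -0.18 to 0.077 with a rat left out (0.011 without control 9, 0.077 without cholate rat 3), and that of Ptgs1 to Pou2f3 (-0.16) from -0.28 to 0.0011, the latter without cholate rat 3; both reversed there. The cause of these shifts was not tested. The 6 libraries and the 15 ratios were chosen after seeing the data. No paired analysis was possible because the diets were given to different, differently numbered rats. Genes under about 1 CPM, Il25 among them, are limited by depth.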
